A study of Mus musculus with 6 samples.

Results

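Paired immune receptors of the LILR, CD300 and SIRP families were followed in macrophages from mice without CD74, which chaperones MHC class II molecules and also serves as a cell-surface MIF receptor. Members were taken by gene symbol, 9 in all: Lilrb4a, Lilrb4b, Pirb, Cd300a, Cd300lb, Cd300ld, Cd300lf, Sirpa and the SIRP-alpha ligand gene Cd47. Of the 17217 rows of the table, 8 belonged to members, and all 8 passed the filter of a mean of 1 TPM (a transcript abundance scaled to gene length and library total). Lilrb4b had no row, counts as not detected under the rule that chose the members, and is given no level. The libraries were 3 from CD74-/- (Cd74 knockout) and 3 from CD74+/+ (Control) mouse bone marrow-derived macrophages. Cells of both groups were grown from femoral marrow of 8-week-old mice in M-CSF, the macrophage growth factor, at 30 ng/mL. Both groups then received LPS (lipopolysaccharide) at 100 ng/mL for 24 h, so unstimulated cells are no part of the comparison. The harvest protocol, the same for all libraries, speaks of wild-type mice, while the RNA protocol and the genotype labels give both genotypes. The labels describe neither the knockout allele nor separate animals per replicate. Labelled batch 2 held every knockout library and labelled batch 1 every Control library, so a batch difference and a genotype difference cannot be told apart in any result below.

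Most inhibitory receptors of this kind carry an ITIM, a tyrosine motif in the cytoplasmic tail. Once Src-family kinases phosphorylate it, the motif recruits the phosphatases SHP-1 (Ptpn6), SHP-2 (Ptpn11) or SHIP-1 (Inpp5d), which oppose signals from receptors coupled to the ITAM adaptors DAP12 (Tyrobp) and the Fc receptor gamma chain (Fcer1g). In macrophages SIRP-alpha reads CD47 on neighbouring cells and restrains phagocytosis, PirB binds MHC class I, and CD300 receptors bind lipids exposed on dying cells. By that textbook division the members are not all inhibitory. Lilrb4a, Pirb, Cd300a, Cd300lf and Sirpa encode receptors with ITIMs, whereas Cd300lb and Cd300ld encode short-tailed receptors that signal through DAP12 or the gamma chain, Lilrb4b encodes gp49A, which lacks ITIMs, and Cd47 encodes a ligand.

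In Cd74 knockout libraries Cd300ld and Cd47 fell and Cd300lb rose, by 0.65, 0.49 and 0.22 on the log2(TPM + 1) scale. Of the 5 tested genes for ITIM receptors limma called 0, beside 28.5% of all tested rows, and 5 genes are too few to set apart from that share. Unadjusted limma p was 0.0419 for Lilrb4a and 0.0293 for Cd300lf. Cd300lf was called with a replicate block (limma adjusted p = 0.035) and without knockout replicate 1 (limma adjusted p = 0.0484). It was not called in 5 of 6 fits with a library left out (limma adjusted p up to 0.213) or under any other setting. On recovered reads limma-voom also called 0 of 5, and its share over all rows is not given here. Calls are two-sided limma tests at a Benjamini-Hochberg adjusted p under 0.05 over 13034 tested rows. Over all tested rows 28.5% were called, 18.5% higher and 10.1% lower in the knockout, so 3 called of 8 members, 1 higher and 2 lower, are read as no more than that background. The groups did not overlap for 5 of 8 members, beside 50.0% of all tested rows. The median log2 difference was -0.23 over the members and 0.039 over all tested rows. The split of calls between directions moved with scaling, from 2406 higher and 1313 lower as deposited to 1821 higher and 1715 lower after median-of-ratios scaling. The count of members stayed at 1 higher and 2 lower in that setting.

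**Figure D1:**
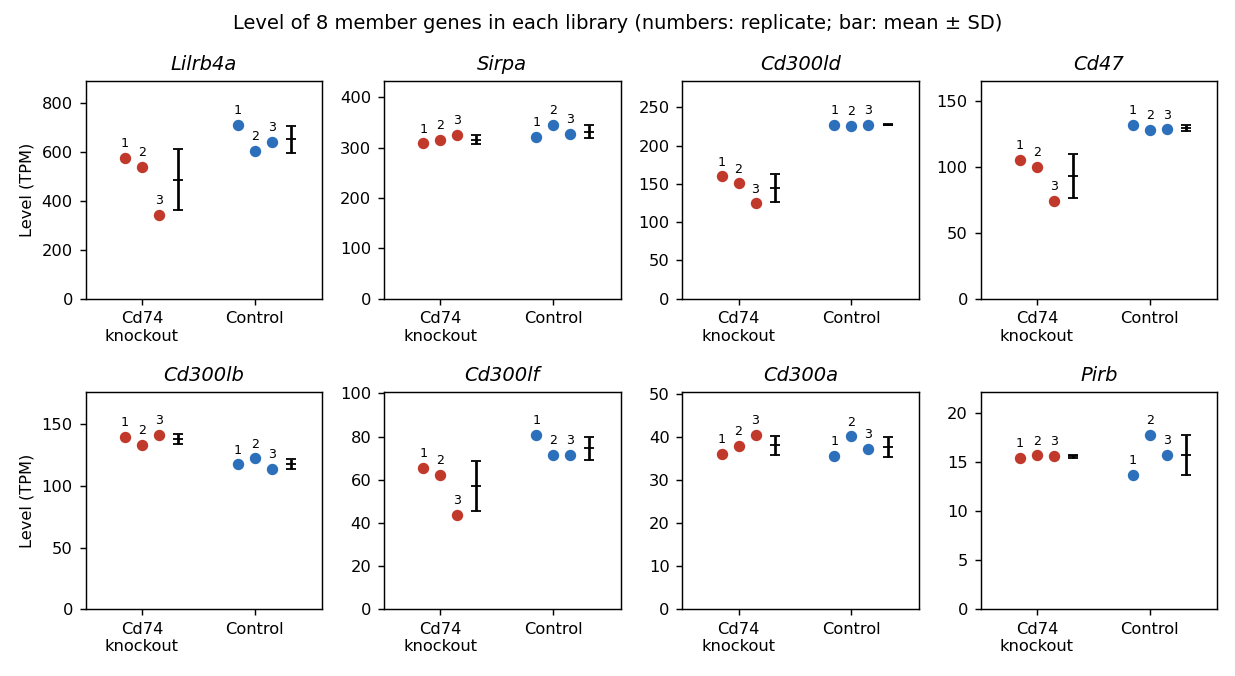
Level in TPM of the 8 members with a row, in order of their Control mean, with 1 point per library (replicate number above it) and the mean ± SD of 3 libraries beside each group. Cd300ld stood at 125 to 159.9 TPM in the knockout libraries and 226 to 228 TPM in Control, while Sirpa, Cd300a and Pirb overlapped between the groups.

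The libraries held 35495371 to 57686247 recovered reads, and the members' own reads ranged from 696 (Pirb in Control replicate 1) to 53976 (Lilrb4a in knockout replicate 1). All 8 members' values were whole reads at the annotated exon length in all 6 libraries, within 0.02 read. This was not so for the targeted gene Cd74, tabulated at 65.3, 64.6 and 63.1 TPM in knockout libraries and 632, 593 and 594 TPM in Control libraries, whose knockout values are not whole reads. Its direction goes with the genotype labels. Of 10 macrophage markers all had a row, with a summed level of 16429 to 17868 TPM in knockout and 12845 to 13394 TPM in Control libraries. Of the 9 tested, 5 rose, among them Lyz2, the lysozyme gene with the highest level, at 8102, 8324 and 9547 TPM in knockout and 4966, 5622 and 5529.7 TPM in Control libraries. Csf1r rose to 226, 221 and 291 TPM in knockout libraries, against 134, 154 and 145 TPM in Control libraries (log2 difference 0.76, limma adjusted p = 0.00509). The others that rose were Itgam (0.30), Spi1 (0.24) and Ctsb (0.20). Adgre1, the F4/80 gene, fell to 351, 352 and 293 TPM in knockout libraries, against 487, 494 and 486 TPM in Control libraries (log2 difference -0.56, limma adjusted p = 0.00435). The mannose receptor gene Mrc1 was below 1 TPM throughout. Of 8 T and NK cell markers 0 had a row. The 3 of 12 neutrophil markers with a row summed to 23.8 to 29.3 TPM in knockout and 17.6 to 18.1 TPM in Control libraries, and Ly6g, Mpo and Elane had none. Their members moved apart: S100a8 rose by 1.73 (limma adjusted p = 0.00142) and Csf3r fell by 0.62 (limma adjusted p = 0.00732). Those of B and plasma cells (3 of 7 with a row) summed to 12.0 to 12.7 TPM in knockout and 8.14 to 10.3 TPM in Control libraries, almost all of it Ighm. The mast cell and basophil list had 1 row of 7, Hdc, at 4.37 to 9.03 TPM in knockout and 21.9 to 31.2 TPM in Control libraries, while Cpa3, Kit and Fcer1a had none. The dendritic cell markers with a row (4 of 7) summed to 6.24 to 7.02 TPM in knockout and 5.36 to 8.26 TPM in Control libraries. Erythroid and megakaryocyte markers (4 of 6) summed to 1.51 to 3.06 TPM in knockout and 1.63 to 2.44 TPM in Control libraries, and stromal markers (4 of 7) to 1.02 to 1.38 TPM in knockout and 1.33 to 1.45 TPM in Control libraries. The part of these cells in the members' differences was not tested.

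Knockout replicate 3 stood further from its group than any other library. Its median absolute distance from the other 2 libraries of its group was 0.140 on the log2 scale, beside 0.075 to 0.109 for the other 5 libraries. It was the lowest knockout library in 44.05% of tested rows, and Control replicate 1 was the lowest Control library in 43.6%. Lilrb4a, Cd47, Cd300ld and Cd300lf were all lowest there, so their values are also given without it below.

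The CD300 genes lie side by side on mouse chromosome 11, and among the 8 members with a row Cd300ld had the largest difference and the 1 call that held with each library left out. Cd300ld, which encodes an adaptor-coupled receptor also known as CLM-5 or MAIR-IV, stood at 159.9, 151 and 125 TPM in knockout replicates 1 to 3 and at 228, 226 and 228 TPM in Control replicates 1 to 3. Every knockout library was below every Control library, and the Control libraries lay close together. The means were 145 ± 18.3 TPM in knockout and 227 ± 0.683 TPM in Control libraries (SD, n = 3 each). The level fell by 36.1%, a log2 difference of -0.65 (SE 0.089, 95% interval -0.86 to -0.44, limma adjusted p = 0.00445). Its call held with each of the 6 libraries left out in turn, at -0.73 to -0.55, and the value without knockout replicate 3 was -0.55. In bulk RNA, fewer cells that express a gene and less of its RNA per cell cannot be told apart.

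Cd300lb, which encodes the DAP12-coupled receptor CLM-7 or LMIR5, went the other way. It stood at 139, 133 and 141 TPM in knockout libraries and at 117, 122 and 114 TPM in Control libraries. The groups did not overlap. The means were 138 ± 4.15 TPM in knockout and 118 ± 4.25 TPM in Control libraries (SD, n = 3 each), 17.0% higher in the knockout, with a log2 difference of 0.22 (SE 0.049, 95% interval 0.11 to 0.34, limma adjusted p = 0.0154). The call was lost without Control replicate 3, where the difference was 0.20 (limma adjusted p = 0.0645). A processed pseudogene, Gm11699, overlaps Cd300lb on the opposite strand, at 7.79 to 11.8 TPM in knockout and 8.86 to 13.2 TPM in Control libraries. Whether counting used strand is not given in the sources used here.

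Levels of Cd300lb and Cd300ld, which are per length and so can be set side by side, differed in their relation between the groups. The ratio of Cd300lb to Cd300ld was 0.872, 0.884 and 1.13 in knockout libraries, against 0.516, 0.540 and 0.5005 in Control libraries. In the knockout the ranges of both genes overlapped, at 133 to 141 TPM and 125 to 159.9 TPM, whereas in Control Cd300ld was far above Cd300lb in every library. This pair was chosen after its values were seen and is given without a test.

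The promoter windows of these neighbours and of Cd47 are shown because they belong to the members called in opposite directions. They are RefSeq windows of build GRCm38.p6, from 250 bases before to 50 after the annotated start, and windows were found for 6 of the 9 members. Capitals mark a match on either strand to any of 5 patterns: GAGGAA for PU.1 or other ETS factors, TGANTCA for AP-1, TTGCNNAA for C/EBP, GGGA followed by CC after any 4 bases for NF-kB, and GAAA followed by GAAA after any 2 bases for IRF factors. The Cd300lb window is chr11:114934322-114934621, minus strand, and the Cd300ld window chr11:114989837-114990136, minus strand. The first of the windows listed for Cd47 is chr16:49855404-49855703, plus strand.
Cd300lb: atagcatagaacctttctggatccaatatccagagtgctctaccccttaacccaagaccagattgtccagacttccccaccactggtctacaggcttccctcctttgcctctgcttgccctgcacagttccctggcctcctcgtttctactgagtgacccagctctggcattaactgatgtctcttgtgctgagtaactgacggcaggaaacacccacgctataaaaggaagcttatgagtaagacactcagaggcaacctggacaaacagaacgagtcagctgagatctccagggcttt
Cd300ld: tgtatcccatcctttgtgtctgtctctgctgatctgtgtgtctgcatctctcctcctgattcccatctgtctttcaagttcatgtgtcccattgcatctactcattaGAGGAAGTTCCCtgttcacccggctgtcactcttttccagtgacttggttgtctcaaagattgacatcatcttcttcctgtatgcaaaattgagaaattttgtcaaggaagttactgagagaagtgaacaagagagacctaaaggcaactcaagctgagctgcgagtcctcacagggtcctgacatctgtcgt
Cd47: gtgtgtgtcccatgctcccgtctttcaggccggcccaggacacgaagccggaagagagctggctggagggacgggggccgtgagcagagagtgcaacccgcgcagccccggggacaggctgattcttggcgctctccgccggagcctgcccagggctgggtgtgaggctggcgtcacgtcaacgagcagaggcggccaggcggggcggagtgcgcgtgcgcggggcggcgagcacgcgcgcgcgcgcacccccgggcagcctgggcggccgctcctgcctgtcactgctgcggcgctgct

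The Cd300ld window held 1 ETS match, from position -143 counted from the annotated start at 0, and 1 NF-kB match from position -141 that overlaps it. The Cd300lb and Cd47 windows held 0 matches to any of the 5 patterns. Among 32851 windows of the same length, 28.3% held the ETS pattern, 20.7% the NF-kB pattern, 10.8% the C/EBP pattern, 7.81% the AP-1 pattern and 3.44% the IRF pattern. Among members not called, the windows held 3 ETS matches and 1 NF-kB match for Pirb, 2 ETS matches for Cd300lf, and 1 ETS and 1 C/EBP match for Cd300a. These are matches of letters only, and 2 of the 3 called members had none.

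Cd300lf, the ITIM receptor CLM-1 and the entry receptor of murine norovirus, stood at 65.4, 62.4 and 43.7 TPM in knockout libraries and at 80.6, 71.4 and 71.6 TPM in Control libraries. The groups did not overlap, and knockout replicate 3 was far below the other knockout libraries. The means were 57.2 ± 11.8 TPM in knockout and 74.5 ± 5.29 TPM in Control libraries (SD, n = 3 each), with a log2 difference of -0.40 (SE 0.15, 95% interval -0.74 to -0.053, limma adjusted p = 0.0813). Without knockout replicate 3 the difference was -0.22 (limma adjusted p = 0.0551), and without knockout replicate 1 it was -0.50 and passed the threshold (limma adjusted p = 0.0484). Rab37, which overlaps Cd300lf on the opposite strand, was at 0.0446 to 0.335 TPM in knockout and 0.164 to 0.331 TPM in Control libraries. Cd300a, an ITIM receptor for phosphatidylserine and phosphatidylethanolamine, stood at 36.1, 37.9 and 40.5 TPM in knockout libraries and at 35.8, 40.2 and 37.3 TPM in Control libraries. The groups overlapped, and the log2 difference was 0.016 (SE 0.066, 95% interval -0.14 to 0.17, limma adjusted p = 0.875), a value whose sign changed with scaling.

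Along the CD300 cluster, in the gene order of RefSeq's GRCm38.p6 annotation, Cd300a and Cd300lb come first, and every measured gene from Cd300ld onward stood at a lower mean in the knockout. That point of division was set after the values were seen, and an effect of position was not tested. Of 11 CD300 genes in that order, 8 had a row, and Cd300c, Cd300ld4 and Cd300ld5 had none. Beside Cd300ld, the low-level gene Cd300ld3 was called lower, at 4.13, 4.71 and 4.05 TPM in knockout and 6.84, 6.73 and 10.4 TPM in Control libraries (log2 difference -0.74, SE 0.16, limma adjusted p = 0.0164). Cd300c2 was not called, with a log2 difference of -0.31 (limma adjusted p = 0.0506) and groups that did not overlap. Neither were Cd300e (-0.57, limma adjusted p = 0.0564) and Cd300ld2 (-0.65, limma adjusted p = 0.131), whose groups overlapped. Genes of the Cd300ld group resemble each other in sequence, so reads may have been assigned among them in ways the files do not show.

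**Figure D2:**
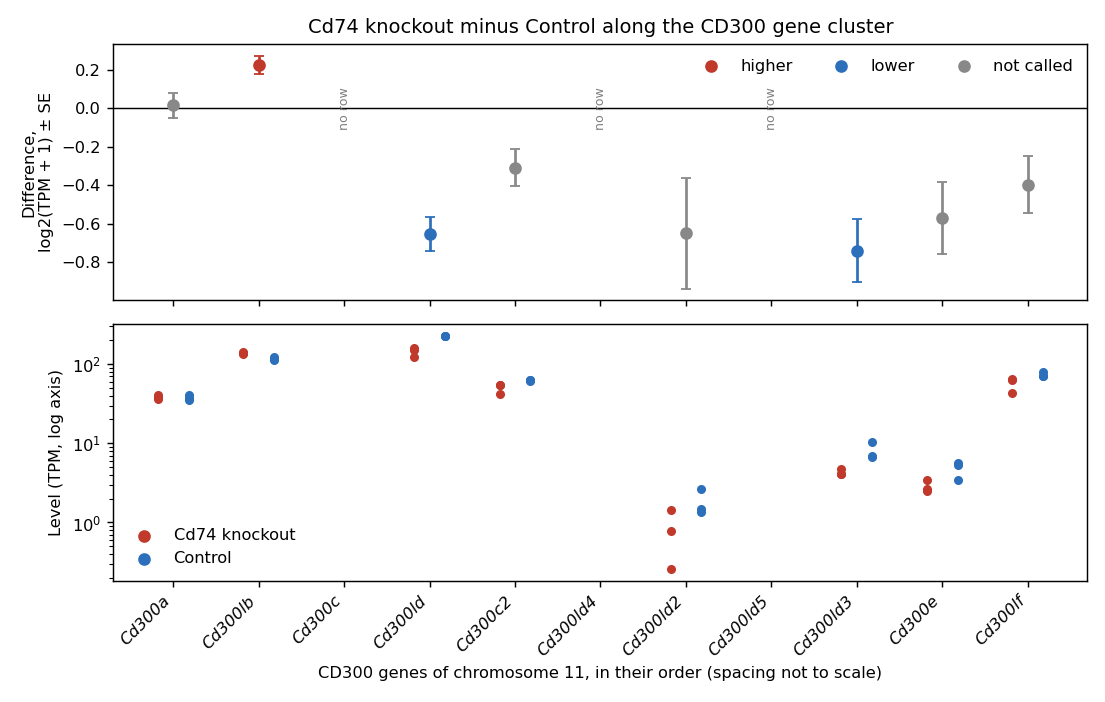
CD300 genes in their order on chromosome 11 (spacing not to scale), with the log2(TPM + 1) difference of Cd74 knockout minus Control ± SE above and the level in each library on a log TPM axis below, 3 libraries per group. Cd300lb (0.22) is above 0 and called, Cd300a (0.016) lies near 0, and the 6 genes from Cd300ld to Cd300lf with a row lie between -0.74 and -0.31.

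Of the LILR members, Lilrb4a was the most abundant gene of the set. It encodes gp49B, an ITIM receptor that binds integrin alpha-v beta-3. Its level was 576, 537 and 343 TPM in knockout libraries and 711, 604 and 639 TPM in Control libraries. The groups did not overlap, but knockout replicates 1 and 2 lay close to the lowest Control library. The means were 486 ± 125 TPM in knockout and 652 ± 54.7 TPM in Control libraries (SD, n = 3 each), with a log2 difference of -0.46 (SE 0.18, 95% interval -0.89 to -0.022, unadjusted p = 0.0419 and limma adjusted p = 0.104). The difference was -0.22 without knockout replicate 3 (limma adjusted p = 0.0707), the library that decides its size, and no fit with a library left out called it. An annotated antisense gene, Gm40645, overlaps Lilrb4a at 1.84 to 3.21 TPM in knockout and 2.73 to 4.61 TPM in Control libraries. A protein-coding gene with no row, Gm49339, overlaps it on the same strand, so counting of Lilrb4a may have been touched by it whether or not strand was used. The close relative Lilrb4b may share reads with it.

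Pirb, which encodes the ITIM receptor for MHC class I, was the least abundant member, at 15.4, 15.7 and 15.7 TPM in knockout libraries and 13.7, 17.7 and 15.7 TPM in Control libraries. The knockout libraries lay inside the Control range. The log2 difference was -0.0058 (SE 0.091, 95% interval -0.22 to 0.21, limma adjusted p = 0.967), with a sign that changed when single libraries were left out. Of the activating PIR-A relatives, which share near-identical extracellular sequence with Pirb and may share its reads, Pira2 stood at 1.13, 1.64 and 1.67 TPM in knockout and 0.867, 0.810 and 1.22 TPM in Control libraries (log2 difference 0.33, limma adjusted p = 0.185). The ratio of Pirb to Lilrb4a was 0.0267, 0.0292 and 0.0456 in knockout libraries and 0.0193, 0.0294 and 0.0246 in Control libraries, a log2 difference of 0.45 (exact two-sided permutation p = 0.3, with 0.1 the smallest p for 3 against 3).

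Sirpa, the ITIM receptor gene of the CD47 checkpoint, stood at 308, 315 and 324 TPM in knockout libraries and at 321, 346 and 327 TPM in Control libraries. The groups overlapped. The means were 316 ± 8.06 TPM in knockout and 331 ± 12.6 TPM in Control libraries (SD, n = 3 each), a log2 difference of -0.069 (SE 0.047, 95% interval -0.18 to 0.042, limma adjusted p = 0.306). Its ligand gene Cd47 stood at 105, 99.98 and 74.03 TPM in knockout libraries and at 132, 128 and 128 TPM in Control libraries. All knockout libraries were below all Control libraries, and knockout replicate 3 was the lowest. The means were 93.0 ± 16.6 TPM in knockout and 129 ± 2.30 TPM in Control libraries (SD, n = 3 each). The level fell by 28.2%, a log2 difference of -0.49 (SE 0.12, 95% interval -0.78 to -0.20, limma adjusted p = 0.0251).

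Without knockout replicate 3 the Cd47 difference was smaller but still called, at -0.33 (limma adjusted p = 0.00403). The call was lost without Control replicate 1 (-0.47, limma adjusted p = 0.0798), without Control replicate 2 (-0.50, limma adjusted p = 0.0648) and without Control replicate 3 (-0.49, limma adjusted p = 0.0712). The ratio of Sirpa to Cd47 was 2.93, 3.15 and 4.38 in knockout libraries, against 2.43, 2.70 and 2.55 in Control libraries. Every knockout ratio was above every Control ratio. The log2 difference was 0.42, with an exact two-sided permutation p = 0.1, the smallest that 3 against 3 allows.

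**Figure D3:**
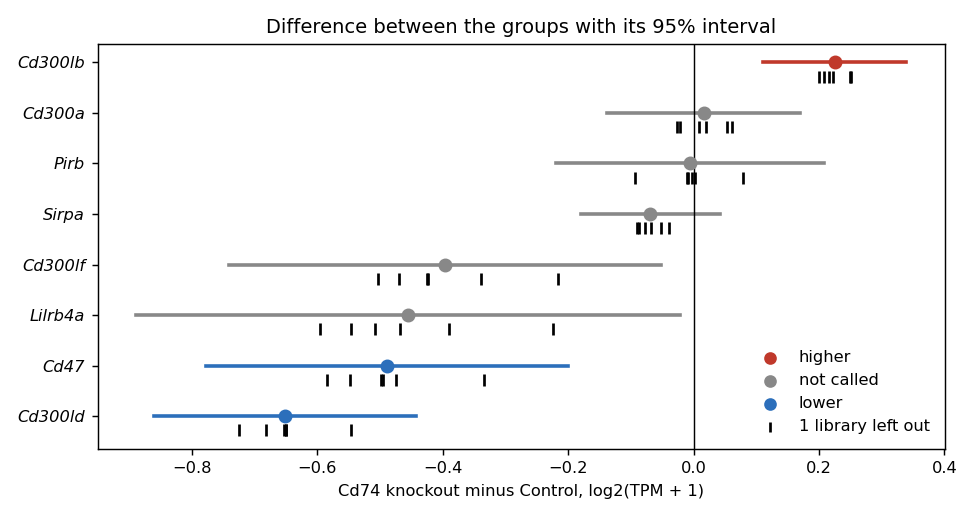
Cd74 knockout minus Control difference on the log2(TPM + 1) scale for 8 members (point), its 95% interval (line) and the 6 values with 1 library left out (ticks), with called genes in colour. Cd300lb (0.22) is above 0, Cd47 (-0.49) and Cd300ld (-0.65) are below, and the ticks of Cd300lf and Lilrb4a reach -0.22.

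By level, the Control order was Lilrb4a (652 TPM), Sirpa (331 TPM), Cd300ld (227 TPM), Cd47 (129 TPM), Cd300lb (118 TPM), Cd300lf (74.5 TPM), Cd300a (37.8 TPM) and Pirb (15.7 TPM), and no neighbours in this order overlapped across libraries. In the knockout Cd300lb, at 138 TPM, stood above Cd47, at 93.0 TPM, in every library. Cd300ld and Cd300lb were the 1 pair of neighbours whose knockout ranges overlapped. Lilrb4a was above 98.3% and Sirpa above 96.9% of tested rows in Control, and Pirb above 44.0%. The rows whose profile over the 6 libraries was most like that of Cd300ld, by Euclidean distance between centred log2(TPM + 1) values, were Zfp945 (0.0375), Gm26902 (0.080) and Rasal1 (0.086). Among members the nearest to it were Cd47 (0.24), Cd300lf (0.39) and Lilrb4a (0.43).

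Among 19 genes for ITIM effectors and Src-family kinases, 6 rose and 4 fell, with a median log2 difference of 0.023. For this list and those below, the shares over all tested rows were 18.5% higher and 10.1% lower. Of 36 genes called in these lists, 18 kept their call with each library left out in turn. No list was tested as a set. Ptpn6, the main phosphatase gene of ITIM receptors, was not called, at 339, 338 and 309 TPM in knockout and 339.9, 336 and 338 TPM in Control libraries. Inpp5d, which encodes the lipid phosphatase SHIP-1, rose to 72.8, 68.8 and 69.7 TPM in knockout libraries, against 56.1, 58.4 and 55.6 TPM in Control libraries (log2 difference 0.31, limma adjusted p = 0.00589). Dok2, an adaptor that dampens kinase signals, rose by 0.38, and Csk, the kinase that inactivates Src-family members, by 0.34. Fyn, a Src-family kinase, fell by 0.47. The calls of Inpp5d, Dok2, Csk and Fyn held with each library left out. Ptpn11 rose by 0.21, a call lost without knockout replicate 2 (0.23, limma adjusted p = 0.0518) and Control replicates 1 (0.20, limma adjusted p = 0.0566) and 3 (0.20, limma adjusted p = 0.0713). Src (-0.49), Fgr (-0.38), Ptprc (-0.17), Lyn (0.15) and Cbl (0.17) kept their calls in 0 to 2 of the 6 fits with a library left out, and those of Lyn and Cbl were also lost under both other scalings (limma adjusted p = 0.0753 to 0.117). Without knockout replicate 3 the Src difference was -0.32 (limma adjusted p = 0.0393).

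Among 12 genes for ITAM adaptors and kinases, 3 rose and 2 fell, with a median of -0.023. The adaptors that Cd300lb and Cd300ld products use were not called. Tyrobp stood at 777, 816 and 777 TPM in knockout and 764, 681 and 756 TPM in Control libraries (log2 difference 0.11, limma adjusted p = 0.193), with groups that did not overlap. Fcer1g stood at 1454, 1414 and 1477 TPM in knockout and 1461, 1466 and 1578 TPM in Control libraries (-0.052, limma adjusted p = 0.452). Pik3cd, the leukocyte PI3-kinase catalytic subunit gene, rose by 0.51, Plcg2 by 0.30 and Btk by 0.24, while Card9, an adaptor below Syk, fell by 0.34 and Blnk by 0.32. Plcg2 lost its call without Control replicate 1 (limma adjusted p = 0.0531) or 3 (limma adjusted p = 0.0539), and Btk without Control replicate 3 (limma adjusted p = 0.0506).

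**Figure D4:**
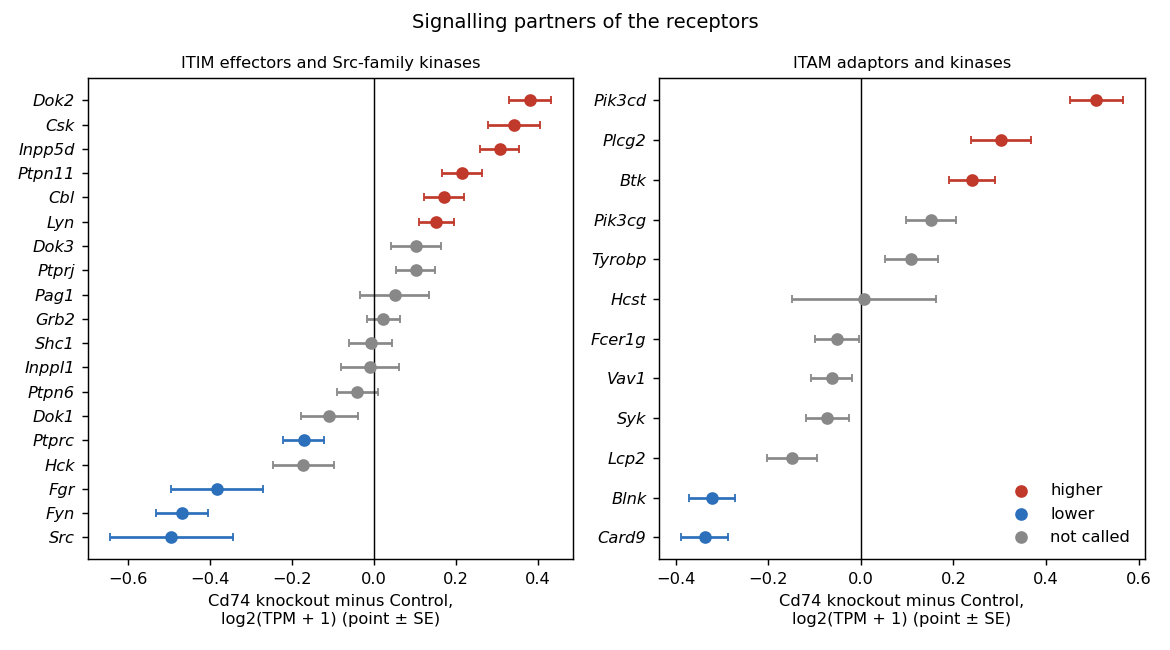
Cd74 knockout minus Control difference on the log2(TPM + 1) scale (point ± SE, 3 libraries per group) for 19 ITIM effectors and Src-family kinases, left, and 12 ITAM adaptors and kinases, right. Dok2 (0.38) and Pik3cd (0.51) are highest on their sides, while Ptpn6 (-0.040), Fcer1g (-0.052) and Tyrobp (0.11) are not called.

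Of 19 candidate ligands and ligand partners besides Cd47, 13 were tested, 1 rose and 1 fell, with a median of -0.096. Angptl2, which encodes a secreted protein that binds PirB, rose to 36.4, 38.1 and 39.4 TPM in knockout libraries, against 10.8, 13.2 and 12.0 TPM in Control libraries (log2 difference 1.59, SE 0.078, limma adjusted p = 0.000236). All knockout libraries were far above all Control libraries, while Pirb itself did not move beyond its spread. Lgals3, which encodes galectin-3, fell by 0.40 (limma adjusted p = 0.0134). The class I genes H2-K1 (0.050), H2-D1 (-0.11) and B2m (0.027) and the Nogo gene Rtn4 (-0.10), further ligands of PirB or part of them, were not called. Thbs1, a secreted ligand of CD47, was at 1.08, 1.04 and 0.392 TPM in knockout and 1.45, 1.56 and 3.34 TPM in Control libraries, and was not called by limma (limma adjusted p = 0.0839), although limma-voom called it (adjusted p = 0.0419).

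A list of 28 other receptors of myeloid cells, most of them inhibitory, held 18 tested genes, of which 4 rose and 6 fell, with a median of -0.094. The inhibitory Fc receptor gene Fcgr2b fell to 63.5, 66.7 and 56.9 TPM in knockout libraries, against 84.9, 88.4 and 90.9 TPM in Control libraries (log2 difference -0.49, limma adjusted p = 0.0044). Siglece, an ITIM-bearing sialic acid receptor gene, fell by 0.53 and Cd200r1, an inhibitory receptor gene without an ITIM, by 0.47. Clec4a2, which encodes the ITIM-bearing lectin DCIR, rose to 9.29, 7.77 and 11.1 TPM in knockout libraries, against 3.26, 4.34 and 4.87 TPM in Control libraries (log2 difference 1.01, limma adjusted p = 0.00672). These calls held with each library left out. Slamf7 fell by 1.23, a call lost without Control replicate 1 (-1.13) or 3 (-1.26), and Trem2, a DAP12-coupled lipid receptor gene that lacks an ITIM, rose by 0.56, a call lost without Control replicate 1 (0.51) or 3 (0.55). Cd33 fell by 0.40 and held in every such fit. Lair1, an ITIM-bearing collagen receptor gene (0.49), and Siglec1, which lacks an ITIM (0.45), kept their calls in 1 of 6 fits and lost them under both other scalings, and Clec12a (-0.15) kept its call in 0 of 6. Without knockout replicate 3 the Lair1 difference was 0.32 (limma adjusted p = 0.0529). ITIM receptor genes outside the set thus had calls in both directions.

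**Figure D5:**
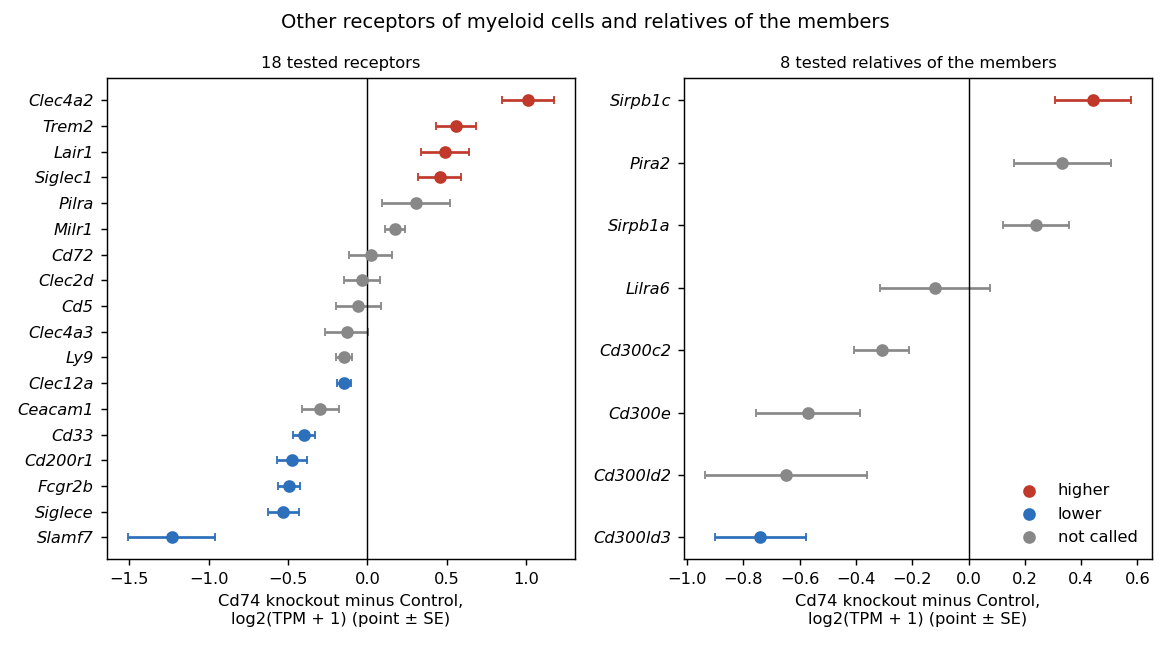
Cd74 knockout minus Control difference on the log2(TPM + 1) scale (point ± SE, 3 libraries per group) for 18 other receptors of myeloid cells, left, and 8 activating or other relatives of the members, right. Clec4a2 (1.01) and Slamf7 (-1.23) lie at the ends of the left side, and Cd300ld3 (-0.74) and Sirpb1c (0.44) at those of the right side.

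Of 23 activating or other relatives of the members, 9 had a row and 8 were tested. Besides Cd300ld3, which fell, Sirpb1c rose to 2.09, 1.97 and 2.33 TPM in knockout libraries, against 1.27, 1.18 and 1.46 TPM in Control libraries (log2 difference 0.44, limma adjusted p = 0.0477). That call was lost with each of the 6 libraries left out in turn (limma adjusted p = 0.0849 to 0.121) and under both other scalings, and its near-identical relatives Sirpb1a and Sirpb1b may share its reads. Of 17 tested genes of phagocytic uptake, 4 rose and 3 fell, with a median of -0.039. Lrp1, an uptake receptor gene, rose to 165, 161 and 188 TPM in knockout libraries, against 99.8, 106 and 96.9 TPM in Control libraries (log2 difference 0.75, limma adjusted p = 0.00211). Itgb2, the beta-2 integrin gene, rose by 0.40 and its partner Itgal fell by 0.43, and the calls of all 3 held with each library left out. Itgam (0.30), Msr1 (0.21) and Elmo1 (-0.21) kept their calls in 2 to 3 of 6 such fits, and that of Msr1 was also lost under both other scalings (limma adjusted p = 0.052 and 0.0562). Skap2, an adaptor that binds SIRP-alpha, fell by 0.21, a call lost without knockout replicate 2 (limma adjusted p = 0.0605) or Control replicate 3 (limma adjusted p = 0.068).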

How the data were processed

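RNA of 6 LPS-treated mouse macrophage libraries was available as 1 deposited table of TPM values, a unit read from the values since the header names none. GRCm39 and DESeq2 are named, without a role, per the submitters' processing notes. The aligner, counter and annotation are not given in the sources used here. Table columns were matched to samples by their description labels, with 0 left over.

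Values were tested with limma 3.58.1 in R 4.3.3 (trend and robust settings) on log2(TPM + 1), which understates changes of low genes, for the 13034 rows averaging 1 TPM or more. P-values are two-sided and adjusted by Benjamini-Hochberg across these 13034 rows. Because replicates are not stated to be separate animals, p-values measure the spread between libraries, which may be technical. Reads were recovered from TPM and GENCODE M21 exon lengths, and 16481 rows (95.7%) were whole within 0.02 read in all 6 libraries. Depth is the sum over these rows. The recovery and the fit were tested on simulated data. Intervals cover 95%.

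Members and gene lists were chosen with earlier results of these data known. Genes named were all members, called genes with the largest differences in each list (up to 6), and 7 set partners: Ptpn6, Ptpn11, Inpp5d, Tyrobp, Fcer1g, Thbs1 and Angptl2. Other genes named (neighbours, overlapping genes and further genes of a list) were chosen after their values were seen. Replicate numbers were not treated as pairs in the main fit. Alternatives were 2 scalings, another pseudocount, 2 other filters, a replicate block, limma without trend, each library left out and limma-voom on recovered reads. The last was chosen after the data were seen.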

Additional observations from a re-analysis of the deposited data

How the results depend on the processing

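Cd300ld was called lower under every setting tried. Under both scalings, a pseudocount of 0.1, both other filters and limma-voom the members stayed at 1 higher and 2 lower. All rows called were 3536 of 13027 after median-of-ratios and 3603 of 13037 after upper-quartile scaling. They were 3671 of 13034 with the other pseudocount, 3320 of 17217 without a filter and 3761 of 10131 at a mean of at least 5 TPM. For limma-voom the count over all rows is not given here. With a library left out, members numbered 0 to 1 higher and 1 to 3 lower, the listed genes outside the set 8 to 19 higher and 10 to 16 lower, and all rows called 1978 to 3250, of which 1312 to 2094 higher and 666 to 1222 lower. Cd300a changed sign under median-of-ratios (-0.023) and upper-quartile scaling (-0.039), limma-voom (-0.017), without knockout replicate 3 (-0.026) and without Control replicate 1 (-0.021). Pirb did so without knockout replicate 1 (0.0021) and Control replicate 2 (0.079), and Ptpn6 without knockout replicate 3 (0.0025). With a library left out, Pirb ranged from -0.094 to 0.079, Cd300a from -0.026 to 0.061 and Ptpn6 from -0.063 to 0.0025. The cause was not tested. Upper-quartile scaling gave 1735 higher and 1868 lower over all rows, and the listed genes were 13 higher and 21 lower under either scaling. The Sirpa to Cd47 difference ranged from 0.25 to 0.54 and that of Pirb to Lilrb4a from 0.21 to 0.60 with a library left out.

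With a replicate block, 3711 rows were called, 2331 higher and 1380 lower, and the members were 1 higher and 3 lower, Cd300lf being added (limma adjusted p = 0.035). Correlations of same-numbered libraries were 0.134, -0.077 and 0.031. Knockout replicate 1 correlated best with its own number, and knockout replicates 2 and 3 did not. The values were centred within groups of 3 libraries, so these correlations cannot decide whether numbers pair libraries. Cd300ld2 and Thbs1 stood at a few TPM or less, and the part of depth in their spread was not tested.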
